A study of Mus musculus with 2 samples.

Results

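The miR-26 and miR-101 families were examined in small RNA of mouse embryonic stem (ES) cells, as 5 hairpin precursors named Mir26a-1, Mir26a-2, Mir26b, Mir101a and Mir101b. They were chosen by name, as miRNAs that are known to act on the Polycomb gene Ezh2, and they are 5 of the 1174 annotated mouse hairpins used here. A tag is a distinct sequence with its number of reads. Of 1766298 distinct tags seen in either library, 8580 matched any hairpin without mismatch and 96 matched one of these 5. The 5 hairpins gave 9 arms with reads among 1146 arms with reads, and 4 of the 9 reached 1 RPM (reads per 1000000 clean reads) in at least 1 library. These 4 arms are miR-26a-5p, miR-26b-5p, miR-101a-3p and miR-101b-3p. All tags of the 5 hairpins together held 80814 reads in the control library and 80875 in the treated one, which are 0.428% and 0.383% of the clean reads.

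Polycomb repressive complex 2 silences developmental genes by methylating lysine 27 of histone H3, and Ezh2 is its catalytic subunit. A miRNA is cut as a duplex from a hairpin, and the strand that is loaded into an Argonaute protein pairs with target mRNAs mainly through bases 2 to 8, the seed. Both miR-26 and miR-101 are known to repress Ezh2 by pairing with its 3′ UTR, and the miR-26 genes lie in introns of genes for small C-terminal domain phosphatases. Forms of a miRNA that differ in their ends are called isomiRs, and a shift of the 5′ end also shifts the seed.

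The J1 line of mouse ES cells was grown on gelatin, in Knockout DMEM with Knockout Serum Replacement and leukaemia inhibitory factor (LIF). The cells received 1 mM AICAR, an activator of AMP-activated protein kinase, or an equal volume of the solvent DMSO, and were taken at 24 h. Each condition was 1 library, so every difference below is between these libraries, with no check by replicates and no test. The control library is titled J1_U, but its treatment is given as DMSO. Intervals are 95% intervals that cover counting error only, and sequencing reads after PCR are not independent molecules.

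The DMSO library held 18870345 clean reads and the AICAR library 21091226, of which 11.6% and 15.7% matched a hairpin. The 3-read limit that a count of 0 allows was 0.159 RPM and 0.142 RPM. Of the reads on hairpins, 9.49% in DMSO and 3.81% in AICAR were of tags under 21 nt. The labelled cell type was checked with miRNAs of ES cells and of other cells. All 6 ES cell miRNAs of the miR-290 cluster were present, at a summed 29473 RPM in DMSO and 50105 RPM in AICAR. Fibroblast miRNAs summed to 199 RPM and 203 RPM, with miR-214-3p at 0 reads and 4 of 5 detected. The 3 neuronal miRNAs summed to 1248 RPM and 1417 RPM, mostly miR-128-3p. Muscle miRNAs summed to 161 RPM and 204 RPM, the liver miRNA miR-122-5p had 2.91 RPM and 25.4 RPM, and blood miRNAs summed to 1.17 RPM and 1.28 RPM with miR-223-3p at 0 reads. The part of other cell types in the levels below was not tested, and fewer cells of a type cannot be told apart from less miRNA per cell.

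The most-read tag of each abundant arm is shown because the tag length and the 5′ end decide how these miRNAs are counted. A further tag is shown where it held at least 20% of the reads of its arm in either library. Sequences are 5′ to 3′, read from the deposited tags and written with U, and capitals mark the seed.
miR-26a-5p, main tag: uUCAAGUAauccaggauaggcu
miR-26b-5p, main tag: uUCAAGUAauucaggauagguu
miR-101a-3p, main tag: gUACAGUAcugugauaacugaa
miR-101b-3p, main tag: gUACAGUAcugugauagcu
miR-101b-3p, long form with the same start: gUACAGUAcugugauagcugaa
miR-101b-3p, long form starting 1 base later: uACAGUACugugauagcugaag

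The main tags of miR-26a-5p and miR-26b-5p have the same length and differ by C11U and C21U, counted from 1 at the 5′ end, with the miR-26a-5p base first. Their seed, UCAAGUA, is shared, and the differences lie outside it. The miR-101 tags differ by A16G, counted from 1 at the U of UACAG, with the miR-101a-3p base first. Their most-read tags start with the G before this U and share the seed UACAGUA, whereas tags that start at the U have the seed ACAGUAC. No other arm that reached 1 RPM had UCAAGUA or UACAGUA as the seed of its main tag.

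The mature sequences in RefSeq (GRCm38.p6) equal the main tag for miR-26a-5p and miR-101b-3p, the latter being the short 19 nt form. For the other 2 abundant arms they do not, and they are shown for comparison.
RefSeq miR-26b-5p: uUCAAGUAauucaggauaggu
RefSeq miR-101a-3p: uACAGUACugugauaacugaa
The RefSeq form of miR-26b-5p lacks the last base of the main tag and held 272 of 3924 reads in DMSO and 417 of 7536 in AICAR, or 6.93% and 5.53%. The RefSeq form of miR-101a-3p starts at the U and held 3247 of 23491 reads in DMSO and 4905 of 28799 in AICAR, or 13.8% and 17.03%. The RefSeq form of miR-101b-3p held 41.0% of its reads in DMSO and 22.4% in AICAR. A count of RefSeq forms alone would therefore hold the main form of miR-26a-5p. It would leave out most reads of miR-26b-5p, miR-101a-3p and miR-101b-3p.

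In the GENCODE annotation of GRCm38, Mir26a-1 lies at chr9:119031796-119031885 on the plus strand, in an intron of Ctdspl. Mir26a-2 lies at chr10:126995530-126995613 on the plus strand, in an intron of Ctdsp2, and its last base is the first base of shorter Ctdsp2 transcripts. Mir26b lies at chr1:74394310-74394394 on the plus strand, in an intron of Ctdsp1. These 3 host genes encode the small phosphatases that act on the C-terminal domain of RNA polymerase II. Mir101a lies at chr4:101346945-101347027 on the minus strand, where it overlaps an exon of E130102H24Rik, a long intergenic non-coding RNA. Mir101b lies at chr19:29135279-29135375 on the plus strand, in an intron of Rcl1, a gene of ribosomal RNA processing. Among the annotated transcripts, E130102H24Rik alone held the miR-101a-3p tags outside the hairpins, and no transcript held those of the other 3 arms. This search used 8 tags of miR-26a-5p, 7 of miR-26b-5p, 11 of miR-101a-3p and 15 of miR-101b-3p. Tags with the fewest reads were left out of it. Matches elsewhere in the genome were not analysed here.

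Of the miR-26 family, miR-26b-5p was the arm with the larger difference between the libraries and miR-26a-5p lay closer to 1, and both were higher in AICAR in RPM of clean reads. Neither passed the 2-fold limit used for a call. miR-26a-5p had 4134 reads in DMSO and 5955 in AICAR, which are 219 RPM and 282 RPM. The AICAR value was 1.29 times the DMSO value (95% exact binomial interval 1.24 to 1.34), but 0.946 times when reads were taken relative to all miRNA reads. miR-26b-5p had 3924 and 7536 reads, which are 208 RPM and 357 RPM. This AICAR value was 1.72 times the DMSO value (1.65 to 1.79), and 1.26 times relative to miRNA reads. The order of these arms thus differed between the libraries, with miR-26a-5p the more abundant in DMSO and miR-26b-5p in AICAR.

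The reads of miR-26a-5p cannot be divided between Mir26a-1 and Mir26a-2, since both hairpins hold its main tag. The tag of 23 nt with an added 5′ A matches Mir26a-2 alone and had 1 read in DMSO and 6 in AICAR. The opposite arms, which differ between the copies, had 1 and 2 reads for miR-26a-1-3p. For miR-26a-2-3p there were 2 reads in DMSO and 3 in AICAR by overlap with the RefSeq sequence. At this depth both copies gave reads in both libraries, and their parts in miR-26a-5p could not be estimated.

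Of the miR-101 family, miR-101b-3p was the most abundant of the 4 arms in both libraries and the one that was lower in AICAR, in RPM over all its tag lengths. miR-101a-3p was close to equal in both libraries. Neither passed the 2-fold limit. miR-101a-3p had 23491 reads in DMSO and 28799 in AICAR, or 1245 RPM and 1365 RPM. The ratio of AICAR to DMSO was 1.10 (1.08 to 1.12), and 0.805 relative to miRNA reads. miR-101b-3p had 48608 and 37542 reads, or 2576 RPM and 1779.98 RPM. Its ratio was 0.691 (0.682 to 0.700) over all tags and 0.507 relative to miRNA reads, but 1.23 (1.21 to 1.26) in RPM of tags of at least 21 nt.

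Over the 510 arms that reached 1 RPM, 61 were at least 2-fold higher in AICAR, which is 12%, and 52 were at least 2-fold lower, which is 10.2%. Of the 4 members tested, 0 were past the limit in either direction. The median ratio over all 510 arms was 1.10, so miR-101a-3p lay at the middle of all arms. By the number of arms with a smaller ratio, miR-101b-3p stood above 117 of the 510, miR-101a-3p above 254, miR-26a-5p above 326 and miR-26b-5p above 417. By abundance, miR-101b-3p was 11th in DMSO and 19th in AICAR, miR-101a-3p 22nd and 24th, miR-26a-5p 69th and 63rd, and miR-26b-5p 72nd and 57th. The scale moves all of these ratios, since the median over arms was 0.805 relative to miRNA reads.

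**Figure D1:**
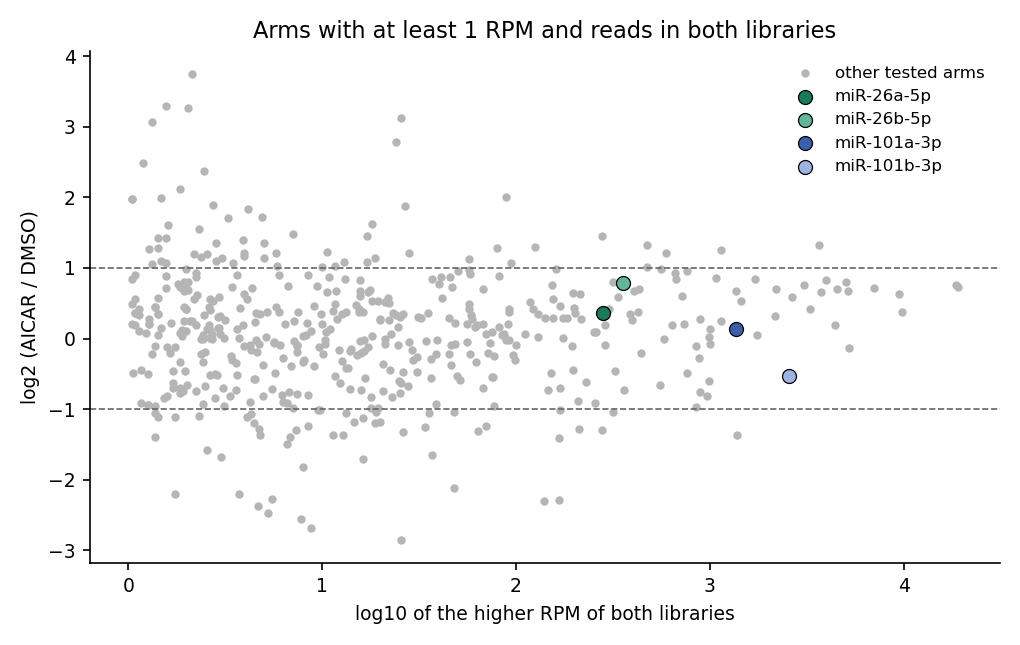
Each point is 1 of the tested miRNA arms with reads in both libraries, plotted as log2 of the AICAR to DMSO ratio against log10 of its higher RPM, with dashed lines at the 2-fold limits. miR-26b-5p lies at 0.78, miR-26a-5p at 0.37, miR-101a-3p at 0.13 and miR-101b-3p at -0.53, all between the dashed lines.

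Summed over each family, miR-26 5p arms had 8058 reads in DMSO and 13491 in AICAR, or 427 RPM and 640 RPM, a ratio of 1.498 (1.46 to 1.54). miR-101 3p arms had 72099 and 66341 reads, or 3821 RPM and 3145 RPM, a ratio of 0.823 (0.815 to 0.832) over all tag lengths. Their tags of at least 21 nt had 33222 reads in DMSO and 46477 in AICAR. For these long tags the ratio in RPM was above 1 in both arms, 1.27 for miR-101a-3p and 1.23 for miR-101b-3p. Over all tag lengths there were 8.95 miR-101 reads for each miR-26 read in DMSO and 4.92 in AICAR. The ratio of these ratios was 0.550 (95% Woolf interval 0.534 to 0.566), and it does not depend on the total used for scaling. With tags of at least 21 nt alone it was 0.802 (0.777 to 0.827). Within the miR-26 family, the b form took 48.7% of the reads in DMSO and 55.9% in AICAR, and the ratio of its reads to those of the a form was 1.33 times as high in AICAR (1.26 to 1.41). Within miR-101, the b form took 67.4% and 56.6%, and the ratio of b to a was 0.630 times as high in AICAR (0.616 to 0.644). With tags of at least 21 nt alone, miR-101a-3p had the more reads in both libraries, and the ratio of b to a was 0.909 in DMSO and 0.885 in AICAR, or 0.973 times as high (0.946 to 1.001).

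The arms differed strongly in tag length. In miR-26a-5p and miR-26b-5p the 22 nt form led, with 179 RPM and 250.5 RPM for miR-26a-5p and 185 RPM and 331 RPM for miR-26b-5p. In miR-101a-3p the 22 nt form led in both libraries (518 RPM and 665 RPM), followed by 21 nt (404 RPM and 504 RPM). In miR-101b-3p the 19 nt form led in DMSO, at 1153 RPM against 550 RPM at 22 nt. In AICAR the order was the opposite, with 452 RPM at 19 nt and 756 RPM at 22 nt. The leading length of miR-101b-3p thus differed between the libraries, while that of the other 3 arms did not.

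**Figure D2:**
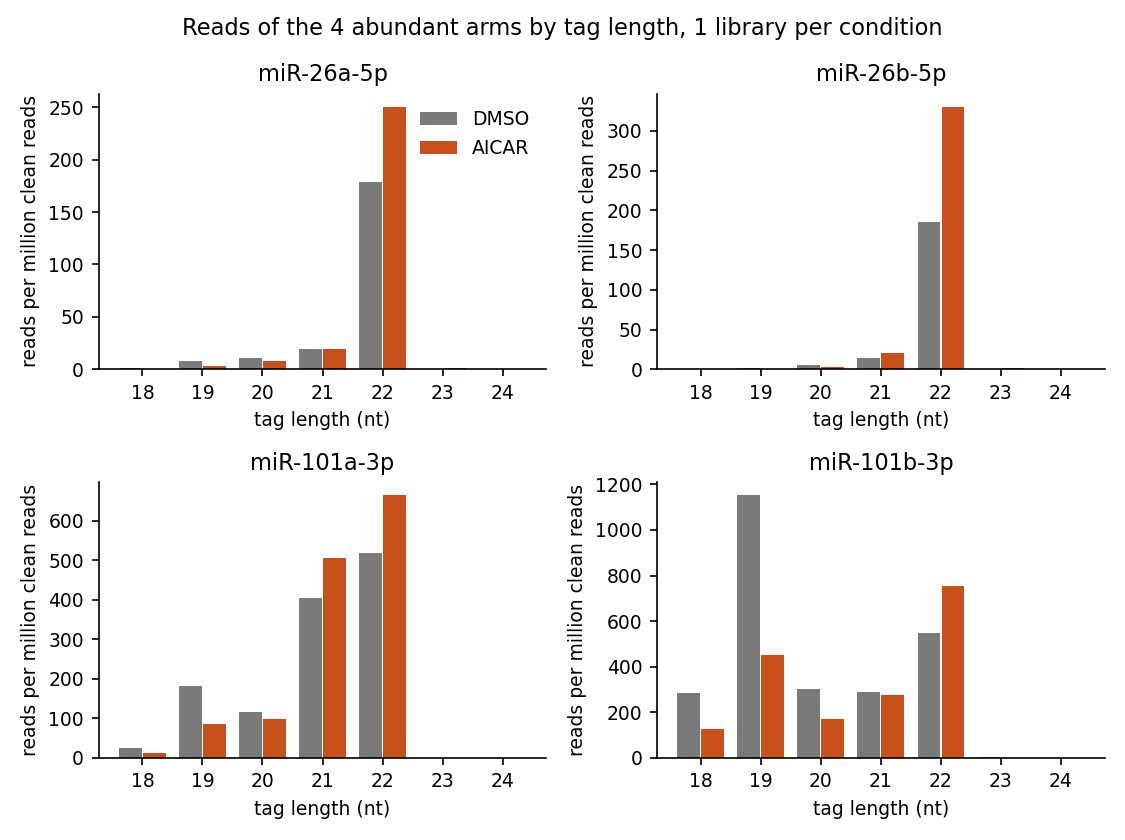
Bars give the RPM of clean reads of each abundant arm by tag length (nt), with DMSO in grey and AICAR in orange, 1 library each. miR-101b-3p shows a tall DMSO bar at 19 nt (1153 RPM against 452 RPM in AICAR), and the other 3 arms are highest at 22 nt in both libraries.

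Tags under 21 nt took 67.5% of miR-101b-3p reads in DMSO (95% Wilson interval 67.0 to 67.9) and 41.9% in AICAR (41.4 to 42.4). In miR-101a-3p the share was 25.9% (25.4 to 26.5) and 14.4% (14.0 to 14.8). It was 9.24% and 4.06% in miR-26a-5p, and 3.29% and 1.05% in miR-26b-5p. Among 105 arms with at least 100 RPM in a library, the median share was 3.27% in DMSO and 1.38% in AICAR, and it was lower in AICAR in 98 of them. In the order of these arms from the highest share, miR-101b-3p was 4th in DMSO and 6th in AICAR, miR-101a-3p 16th in both, miR-26a-5p 27th and 33rd, and miR-26b-5p 52nd and 62nd. A lower share of short tags in AICAR was thus common to most of the abundant arms, the members among them. That miR-101b-3p has many tags under 21 nt was known when the split by length was chosen.

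Split by length, all 4 arms had a ratio below 1 for short tags and above 1 for long tags, as the other miRNAs together did. The short tags of miR-101b-3p had 32788 reads in DMSO and 15726 in AICAR, a ratio of 0.429 in RPM (0.421 to 0.437). Its tags of at least 21 nt had 15820 and 21816 reads. For miR-101a-3p the ratio was 0.608 for short tags and 1.27 (1.24 to 1.29) for long ones. miR-26a-5p had 0.567 and 1.36 (1.31 to 1.42), and miR-26b-5p 0.548 and 1.76. All other miRNA arms together had 0.569 (0.565 to 0.574) for short and 1.45 for long tags, so that miR-101b-3p was below them in both classes and miR-26b-5p above them for long tags (1.69 to 1.83). The long-tag ratio of miR-101b-3p was above that of 262 of 486 arms with long tags at 1 RPM, where the median was 1.18.

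By single lengths, miR-101b-3p had ratios of 0.438 at 18 nt, 0.392 at 19 nt, 0.562 at 20 nt, 0.967 at 21 nt and 1.37 at 22 nt. All other miRNA arms together had 0.438, 0.443, 0.673, 1.01 and 1.47 at the same lengths. miR-101a-3p went from 0.505 at 18 nt to 1.28 at 22 nt and miR-26a-5p from 0.268 to 1.40. In miR-26b-5p only 5 and 1 reads were of 18 nt, and the ratio at 22 nt was 1.78. Whether the length difference between the libraries arose in the cells or in library preparation cannot be told apart with 1 library per condition.

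**Figure D3:**
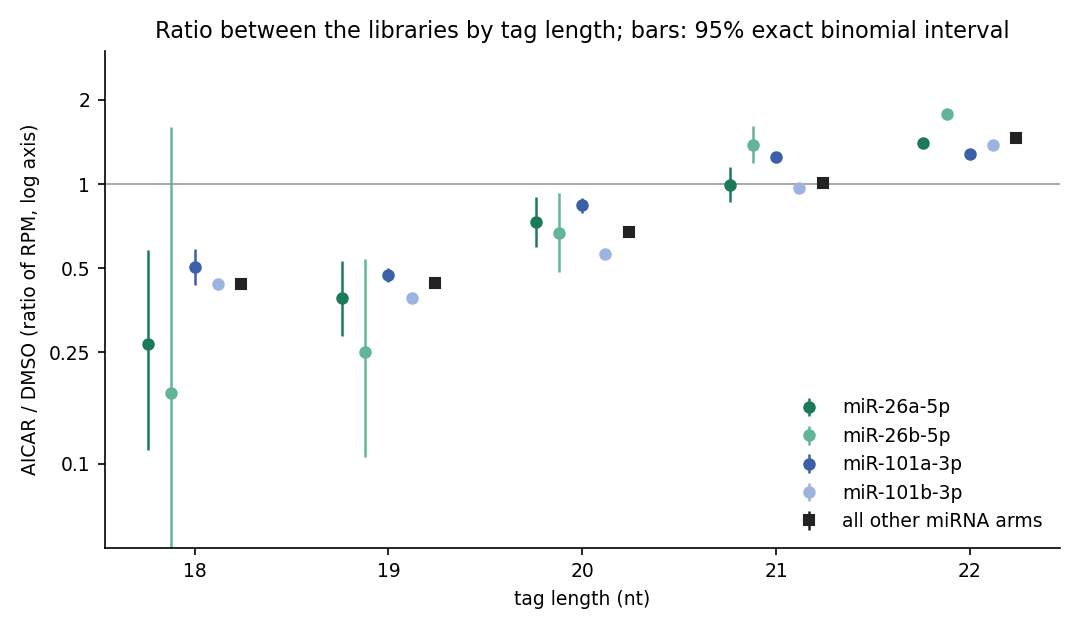
The AICAR to DMSO ratio of RPM (log axis) is plotted by tag length (nt) for the 4 abundant arms and for all other miRNA arms summed, with bars for the 95% exact binomial interval, which runs below the axis for miR-26b-5p at 18 nt. Ratios lie below 1 for all series at 18 to 20 nt and above 1 at 22 nt, where they range from 1.28 for miR-101a-3p to 1.78 for miR-26b-5p.

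Most miR-26 reads shared a single 5′ start, and the miR-101 arms had a pair of starts. Reads at any other than the main start made 0.460% of miR-26a-5p reads in DMSO and 0.521% in AICAR, and 0.280% and 0.159% of miR-26b-5p reads. In miR-101a-3p they made 21.004% and 23.99%, and in miR-101b-3p 29.5% and 41.3%. The median over the 105 abundant arms was 1.24% and 0.964%. By this share miR-101b-3p was 8th of them in DMSO and 6th in AICAR, and miR-101a-3p 13th and 10th.

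The G start, with the seed UACAGUA, and the U start, with the seed ACAGUAC, together made nearly all miR-101 reads. miR-101a-3p had 18557 G-start and 4929 U-start reads in DMSO, and 21891 and 6901 in AICAR. There were 3.76 G-start reads for each U-start read in DMSO and 3.17 in AICAR, a ratio of ratios of 0.843 (0.808 to 0.878). miR-101b-3p had 34287 G-start and 14134 U-start reads in DMSO, and 22036 and 15387 in AICAR. Its G to U ratio was 2.43 in DMSO and 1.43 in AICAR, a ratio of ratios of 0.590 (0.574 to 0.607). In RPM, the G-start reads of miR-101b-3p were 0.575 times and the U-start reads 0.974 times the DMSO value.

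The start and the length went together in miR-101b-3p. Of its reads, 51.7% ended at position 18 (counted from the U) in DMSO and 29.3% in AICAR, and 8.16% and 21.3% ended at position 22. The tags that ended at position 18 had 19952 G-start and 5173 U-start reads in DMSO. Those that ended at position 22 had 29 G-start and 3888 U-start reads in DMSO, and 20 and 7948 in AICAR. Forms that ended at position 22 were thus almost all of the U start, in both libraries. Position 22 was the last that the end limit allowed for this arm, and longer forms are described below. miR-101a-3p had most reads ending at position 21, with 54.3% in DMSO and 63.9% in AICAR, and 1.13% and 1.88% at position 22.

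At a fixed 3′ end, G-start and U-start forms of miR-101 were compared by their ratios of AICAR to DMSO. With the same end, a G-start tag is 1 nt longer than a U-start tag, so tag length is not held equal. At position 18 the U-start tag is 18 nt, the shortest tag length in these data. For miR-101b-3p ending at position 18, the ratio was 0.378 for the G start and 0.444 for the U start, and the former was 0.851 times the latter (0.806 to 0.898). At position 19 that quotient was 0.943 (0.863 to 1.03), at position 20 it was 1.11 (0.988 to 1.24) and at position 21 it was 0.998 (0.938 to 1.06). At position 22 it was 0.337 (0.191 to 0.597) on few G-start reads. For miR-101a-3p it was 0.938 at position 18, 1.13 at 19, 0.931 at 20 and 0.939 (0.892 to 0.989) at 21. At position 22 of miR-101a-3p it was 0.588 (0.178 to 1.94), on 5 and 6 G-start reads. The interval held 1 at positions 18, 19, 20 and 22 of miR-101a-3p and at positions 19, 20 and 21 of miR-101b-3p.

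**Figure D4:**
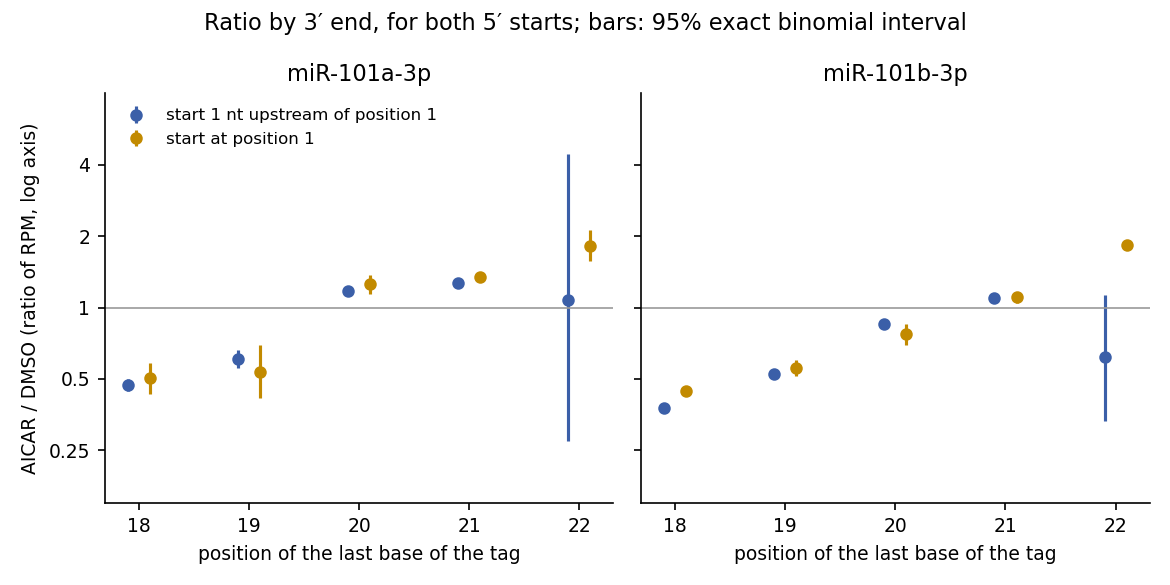
The AICAR to DMSO ratio of RPM (log axis) is plotted against the position of the last base of the tag, counted from the U of UACAG, for tags with the G start (blue) and the U start (ochre), with 95% exact binomial intervals. In both arms the ratio lies below 1 at positions 18 and 19 for either start and at or above 1.10 at position 21. Tags of the U start reach 1.83 at position 22 in both arms.

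Tags with an exact hairpin match of at least 18 nt followed by 1 to 3 added bases were counted apart, as tailed reads. The first added base does not continue the match, while later ones may match the hairpin by their letter. These reads are not in the values above. Terminal uridylation and adenylation of mature miRNAs are known modifications, made by terminal nucleotidyl transferases. A sequencing error in 1 of the last 3 bases can give the same tag. Matches of tailed tags elsewhere in the genome were not analysed here. miR-26a-5p had 1084 tailed reads in DMSO and 2907 in AICAR, which are 20.8% and 32.8% of its tailed and untailed reads. The ratio of tailed to untailed reads was 1.86 times as high in AICAR (1.72 to 2.02). The share was 7.08% and 10.5% in miR-26b-5p, 7.33% and 11.6% in miR-101a-3p, and 5.25% and 9.40% in miR-101b-3p. Over the 105 abundant arms the median share was 6.64% in DMSO and 8.44% in AICAR. miR-26a-5p was 17th of these arms in DMSO and 13th in AICAR, and the other 3 arms were between 42nd and 65th.

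The added base differed between the arms. A single added A was more frequent than a single added U in miR-101a-3p (4.99% and 0.907% in DMSO) and in miR-101b-3p (2.63% and 1.87%). A single U was the more frequent in miR-26b-5p, with 4.22% of reads in DMSO and 6.84% in AICAR against 2.23% and 2.77% for A. miR-26a-5p carried A (5.81% and 8.59%) more often than U (3.09% and 6.13%). It also carried a UU tail on 4.06% of reads in DMSO and 7.27% in AICAR, which miR-26b-5p had on 0.189% and 0.0950%. The last U of such a tag can match the miR-26a hairpins, so some of these tags can also be single substitutions. The shares with a single A and with a single U were higher in AICAR in all 4 arms.

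**Figure D5:**
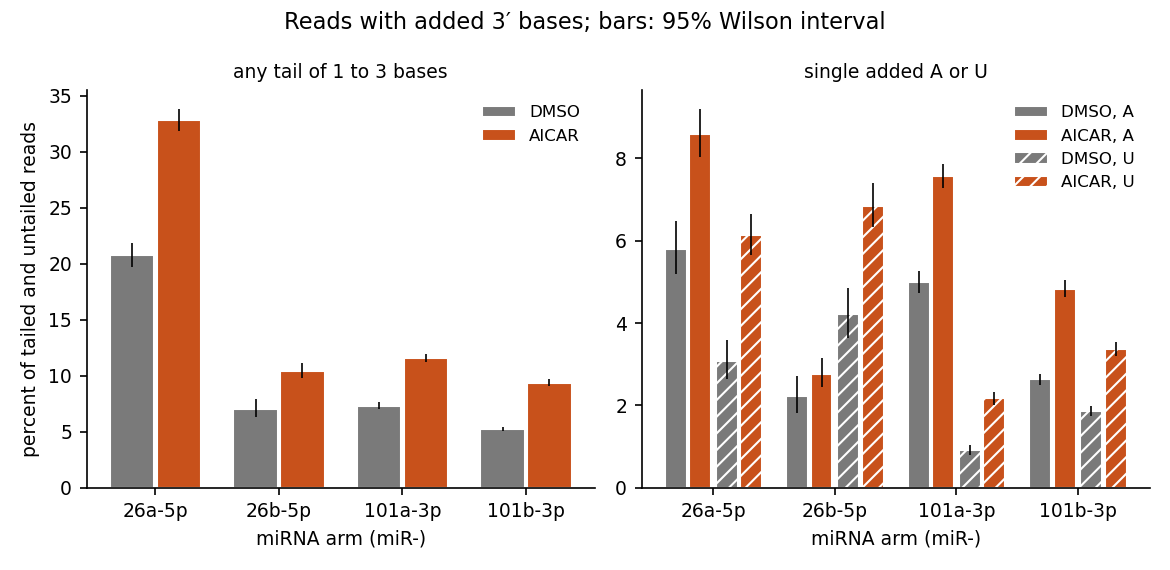
Bars give the percent of tailed and untailed reads of each abundant arm that carry any tail of 1 to 3 bases (left) or a single added A or U (right, hatched for U), with 95% Wilson intervals for counting error. The AICAR bar is above the DMSO bar for every arm and tail, and miR-26a-5p has the highest share with any tail, 20.8% in DMSO and 32.8% in AICAR.

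The opposite arms were close to absent. miR-26b-3p had 1 read in DMSO and 2 in AICAR. miR-101a-5p had 1 and 4 reads, and the RefSeq sequence itself had 0 in both. For miR-101b-5p, the most-read tag of that side lay in the 5′ flank of the mature sequence, and 1 read in each library overlapped the RefSeq arm, with 0 for the sequence itself. With these few reads, no ratio was given for the opposite arms. A further 642 reads in DMSO and 1024 in AICAR matched Mir101b outside the limits of both arms, and at most 3 did so for any other of the 5 hairpins. Of these, 433 and 786 were U-start tags of miR-101b-3p of 23 or 24 nt, too long for the end limit set by its 19 nt main tag, with a ratio of 1.62 (1.44 to 1.83). Counted by overlap, which includes them, miR-101b-3p had a ratio of 0.701.

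The 3′ UTR of Ezh2 was searched because Ezh2 is the best known target of both families. Its mRNA and protein were not measured in these libraries. The longest annotated 3′ UTR, of 402 nt on the minus strand of chromosome 6 (GRCm38), was read from the GENCODE transcripts, and capitals mark the complement of the seed, searched on the transcript strand.
Ezh2, complement of the miR-26 seed, chr6:47530279-47530301: ataaagaaTACTTGAacttgttg
Ezh2, complement of the miR-101 U-start seed, chr6:47530468-47530490: aaccttgaGTACTGTgggcaatt
Ezh2, complement of the miR-101 U-start seed, chr6:47530413-47530435: tttgcaaaGTACTGTaacagtaa
Ezh2, complement of the miR-101 G-start seed, chr6:47530412-47530434: ttgcaaagTACTGTAacagtaat

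The miR-26 complement TACTTGA is followed by an A, the base that strengthens many target sites. Of the pair of matches to GTACTGT, the complement of the U-start seed, 1 overlaps the only match to TACTGTA, the complement of the G-start seed, by 6 bases. Both of these overlapping matches are also followed by an A, and the other match to GTACTGT is followed by a G. The other match is complementary to the whole U-start seed, and to the G-start seed in all but its first base. The G-start and U-start forms of miR-101, whose proportions differed between the libraries, therefore have different sets of full seed matches in this UTR. Among 15295 genes with a 3′ UTR of at least 402 nt, the first 402 bases held TACTTGA in 2.85%, GTACTGT in 2.71% and TACTGTA in 3.33%. Of 13 Polycomb genes searched over the whole UTR, 4 held TACTTGA (Ezh2, Suz12, Jarid2 and Bmi1), 3 held GTACTGT (Ezh2, Eed and Rbbp7) and 2 held TACTGTA (Ezh2 and Rbbp7). Over whole UTRs of any length, 9.67%, 9.38% and 12.2% of 21020 genes held them, in that order. These shares are not matched for length, and the UTRs of the 13 Polycomb genes ran from 402 nt (Ezh2) to 2992 nt (Rbbp4). Ezh2 is in each of these counts, and both families were chosen for their known action on it. Enrichment among the Polycomb genes was not tested. A match describes the letters and is not a measured site.

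Other miRNAs known to act on Polycomb genes were described from a fixed list of 16. Of these, 14 had reads and 13 reached 1 RPM, of which 1 was at least 2-fold higher in AICAR and 0 were at least 2-fold lower, beside 12% and 10.2% of all arms tested. The one past the limit was miR-203-3p, a regulator of Bmi1, with 32 and 83 reads and a ratio of 2.32 (1.53 to 3.61), or 1.70 relative to miRNA reads. let-7a-5p, known to act on Ezh2, had 34163 and 64411 reads and a ratio of 1.69. miR-181a-5p, known to act on Cbx7, had 974 and 725 reads and a ratio of 0.666. Of the 13, 8 had a ratio above 1 and 5 below 1, with a median of 1.202 beside 1.10 over all arms tested. Relative to miRNA reads, 0 of them were 2-fold higher and 1 was 2-fold lower, miR-181a-5p at 0.489, beside 4.71% and 22.2% of all arms.

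By the levels in both libraries, the arms closest to miR-26a-5p among the 105 with at least 100 RPM were miR-1981-5p, miR-708-5p and miR-340-5p, at log2 distances of 0.11, 0.19 and 0.20. The nearest to miR-101b-3p were miR-92a-3p (0.60), miR-107-3p (0.63) and miR-669c-5p (0.79). These distances rest on 2 libraries.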

How the data were processed

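RNA of DMSO- and AICAR-treated J1 cells was, by the study's methods, size-selected at 18 to 30 nt and sequenced. The authors removed low-quality and contaminant reads and deposited counts of reads for each distinct tag, with its length and sequence, not normalized and not aligned. The cleaning tools are not given in the sources used here. The tag lengths given here were counted from the sequence of each tag.

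Tags were matched without mismatch to 1174 GENCODE hairpins (GRCm38), while the labels name mm9, of which no coordinates were used. The most-read tag of each arm was its reference, and tags starting within 2 nt and ending within 4 nt of it were counted. Copies with the same reference were merged, and tags fitting several arms counted in full for each. Arms with at least 1 RPM in a library were compared, and a ratio of at least 2 or at most 0.5 was a call. Members, lists and settings were chosen with earlier results of these data known. The named miRNAs were both arms of the 5 hairpins, a list of 16 regulators of Polycomb genes, the marker miRNAs and the 3 nearest arms of miR-26a-5p and miR-101b-3p. Forms with at least 20% of the reads of an arm were printed, and RefSeq forms were added where they differed.

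TMM factors came from edgeR 4.0.16 in R 4.3.3, which was used for nothing else. The other steps ran in Python 3.11.15, where scipy 1.17.1 gave the intervals, numpy 2.4.6 the arrays and matplotlib 3.10.9 the plots. The counting was tested on simulated tags. The alternatives were other scalings, length limits, match rules and filters.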

Additional observations from a re-analysis of the deposited data

How the results depend on the processing

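No paired analysis was possible because each group has 1 library. Scaling to miRNA reads gave ratios of 0.946 for miR-26a-5p, 1.26 for miR-26b-5p, 0.805 for miR-101a-3p and 0.507 for miR-101b-3p. In the same order, TMM factors gave 1.204, 1.61, 1.02 and 0.646, and median-ratio factors 1.17, 1.57, 0.999 and 0.630. Tags identical to the reference gave 1.40 for miR-26a-5p, 1.27 for miR-101a-3p and 0.378 for miR-101b-3p, and tags of at least 21 nt 1.36, 1.27 and 1.23. With 1 mismatch allowed they were 1.52, 1.15 and 0.711. The reference start alone gave 1.06 for miR-101a-3p and 0.575 for miR-101b-3p, and overlap with the reference 0.701 for miR-101b-3p. In alternatives chosen after seeing the data, tailed tags included gave 1.52 for miR-26a-5p, 1.15 for miR-101a-3p and 0.723 for miR-101b-3p, and tags of at least 21 nt relative to miRNA reads of that length gave 0.942, 1.22, 0.877 and 0.853 for the 4 arms. Also chosen after seeing the data, tags of at least 21 nt alone moved the AICAR to DMSO quotient of miR-101 over miR-26 reads to 0.802 and that of miR-101b-3p over miR-101a-3p reads to 0.973. Over 11 alternatives for each arm, the ratio was above 1 in 9 for miR-26a-5p, 11 for miR-26b-5p, 8 for miR-101a-3p and 1 for miR-101b-3p, and miR-101b-3p at identical tags was the 1 value past the 2-fold limit. The share of tags under 21 nt with 1 mismatch was 7.62% and 2.92% for miR-26a-5p, 24.3% and 12.9% for miR-101a-3p, and 65.0% and 39.3% for miR-101b-3p in DMSO and AICAR. At the reference start it was 25.1% and 12.2% for miR-101a-3p and 72.6% and 51.2% for miR-101b-3p, and by overlap 66.6% and 40.8% for miR-101b-3p. The number of arms at least 2-fold higher was 23 of 273 with a filter of 10 RPM, and 140 of 902 with no filter but reads in both libraries. It was 24 of 510 relative to miRNA reads and 72 of 486 with tags of at least 21 nt. In the same order, the number at least 2-fold lower was 26, 118, 113 and 33. Counting intervals do not cover the spread between cultures or library preparations, and depth limits the opposite arms, which had at most 4 reads.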
